A study of Mus musculus with 6 samples.

Results

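The 8 genes described here, Acta2, Actg2, Myh11, Tagln, Cnn1, Lmod1, Des and Myocd, are the usual marker genes of airway smooth muscle. They were chosen by symbol, and all 8 were found among the 14162 genes measured in every library. RNA was sequenced from whole mouse lungs taken at E12.5. The 3 libraries labelled ShhCre-Dnmt1KO, called Dnmt1KO here, came from embryos in which Cre made from the Shh locus deleted Dnmt1, the gene of the maintenance DNA methyltransferase. The 3 WT libraries came from wild-type littermates, and the labels do not say whether these carried Cre. The Shh locus drives Cre in the airway epithelium, while smooth muscle arises from the mesenchyme around it, a lineage in which this Cre is not known to act. No label ties a library to a separate embryo. The p-values therefore reflect only how far these libraries differ within a group, which may in part be technical. The tissue is unsorted.

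Airway smooth muscle is laid down as rings of mesenchymal cells around the stalks of the growing bronchial tree. Shh secreted by the epithelium acts on these cells through its receptor Ptch1 and the Gli transcription factors, and Bmp4, Wnt and Fgf10 signals take part. In the nucleus the co-activator myocardin, made from Myocd, joins the serum response factor Srf at short A/T-rich elements called CArG boxes and turns on contractile genes. The same genes are used by vascular smooth muscle, and some of them by early heart and skeletal muscle, so values from whole lung do not separate these sources. In whole tissue, fewer cells of a type and less RNA per cell cannot be told apart.

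The CArG element was looked for in RefSeq promoters of build GRCm38.p6, each covering 250 bases before to 50 bases after a gene's start. Its frame is CCNNNNNNGG, which reads the same on both strands, and at least 5 of the 6 middle bases had to be A or T. The promoter set used here held promoters of 4 of the 8 genes, namely Acta2, Cnn1, Des and Lmod1. It lacked Tagln, Myh11, Myocd and Actg2, so their promoters were not searched. Acta2 had 2 matches, starting 84 and 34 bases before its start, and the other 3 promoters had no match in this window. Of all 32851 promoters, 9.98% held at least 1 match. On the list of companion genes of the contractile programme used further on, 11 of 39 promoters, of 33 genes, held a match. Overlapping promoters of Jph2 hold the same match, which was counted for each of them. The 170 bases before the start are shown for Acta2, for Myl9, the gene of the smooth muscle myosin light chain, and for Srf itself, because these show how such elements are placed. Capitals mark the matches. The Acta2 stretch lies at chr19:34255374-34255543 on the minus strand, that of Myl9 at chr2:156775294-156775463 on the plus strand and that of Srf at chr17:46556163-46556332 on the minus strand.
Acta2: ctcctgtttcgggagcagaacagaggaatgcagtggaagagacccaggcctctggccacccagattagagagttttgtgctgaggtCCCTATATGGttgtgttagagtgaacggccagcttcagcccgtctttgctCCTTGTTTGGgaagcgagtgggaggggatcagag
Myl9: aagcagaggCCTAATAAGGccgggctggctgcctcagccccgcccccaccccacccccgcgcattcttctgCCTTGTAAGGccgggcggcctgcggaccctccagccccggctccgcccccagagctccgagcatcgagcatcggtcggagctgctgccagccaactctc
Srf: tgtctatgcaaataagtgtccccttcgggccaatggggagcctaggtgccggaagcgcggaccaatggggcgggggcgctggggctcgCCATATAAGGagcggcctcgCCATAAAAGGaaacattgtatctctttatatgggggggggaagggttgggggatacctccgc

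Muscle actins are close relatives, so reads of one could be assigned to another. The first 60 coding bases are shown for Acta2, the smooth muscle alpha actin on chromosome 19, for Actg2, the smooth muscle gamma actin on chromosome 6, and for Actc1, the cardiac alpha actin on chromosome 2, as read from GENCODE transcripts of GRCm38. Capitals mark bases that differ from Acta2 when the whole coding sequences are aligned. For Actg2 that alignment held 3 gap columns, which lie within the stretch shown and are not marked. After them the Actg2 row is shifted against the Acta2 row, so the 2 rows cannot be compared base by base as printed.
Acta2: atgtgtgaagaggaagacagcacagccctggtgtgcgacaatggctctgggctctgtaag
Actg2: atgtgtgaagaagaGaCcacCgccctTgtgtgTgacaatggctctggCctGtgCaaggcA
Actc1: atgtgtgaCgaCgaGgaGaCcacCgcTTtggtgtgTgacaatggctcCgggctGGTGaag
Over the whole coding sequence, Actg2 was 84.2% and Actc1 82.5% identical to Acta2. Of the 1085 windows of 50 bases in the Acta2 coding sequence, 7 occurred in a transcript of another gene, none of them Actg2, and of the 1082 windows in Actg2 none did. The read length is not given in the sources used here, and shorter reads would share more. Of the other members, Myh11 shared 0.443% of its windows with the non-muscle myosin genes Myh9 and Myh10, Myocd shared 1 window, and Tagln, Cnn1, Des and Lmod1 shared none.

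The deposited values are on a log2 scale, and each could be turned back into a whole number of reads. The libraries held between 18192629 and 25597662 reads. Dnmt1, the targeted gene, stood at 15.57, 15.40 and 15.31 in Dnmt1KO replicates 1, 2 and 3 and at 15.72, 15.74 and 15.76 in WT replicates 1, 2 and 3. Every Dnmt1KO value was below every WT value, with a log2 difference of -0.31 ± 0.09 (SE) that missed the threshold (limma adjusted p = 0.507). The lung epithelial factor gene Nkx2-1 was at 13.48 or above in every library. Dnmt1KO replicate 1 held 3 reads over 4 genes of the Y chromosome, against 4155 to 5207 in the other 5 libraries, so it was not made from the same embryo as the other Dnmt1KO libraries. Dnmt1KO replicate 2 stood apart in heart muscle genes, with a summed RPM (reads scaled to library size) of 659 over 14 such genes against 81.0 to 165 in the other 5.

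None of the 8 smooth muscle genes changed between Dnmt1KO and WT lungs by limma's test over all genes. For scale, 0.29% of all genes tested passed at an adjusted p below 0.05, with 0.282% of all genes higher and 0.00706% lower in Dnmt1KO. At an unadjusted p below 0.05 the count was also 0 of 8, against 4.52% of all genes, and voom on the recovered reads called 0. The groups overlapped in all 8 genes, while 8.78% of all genes had groups that did not overlap. Of the 8 differences, 5 were negative and 3 positive, with a median of -0.22 on the log2 scale, against a median of -5.9e-05 over all genes. The wide spread lay within the groups, above all between WT libraries.

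**Figure D1:**
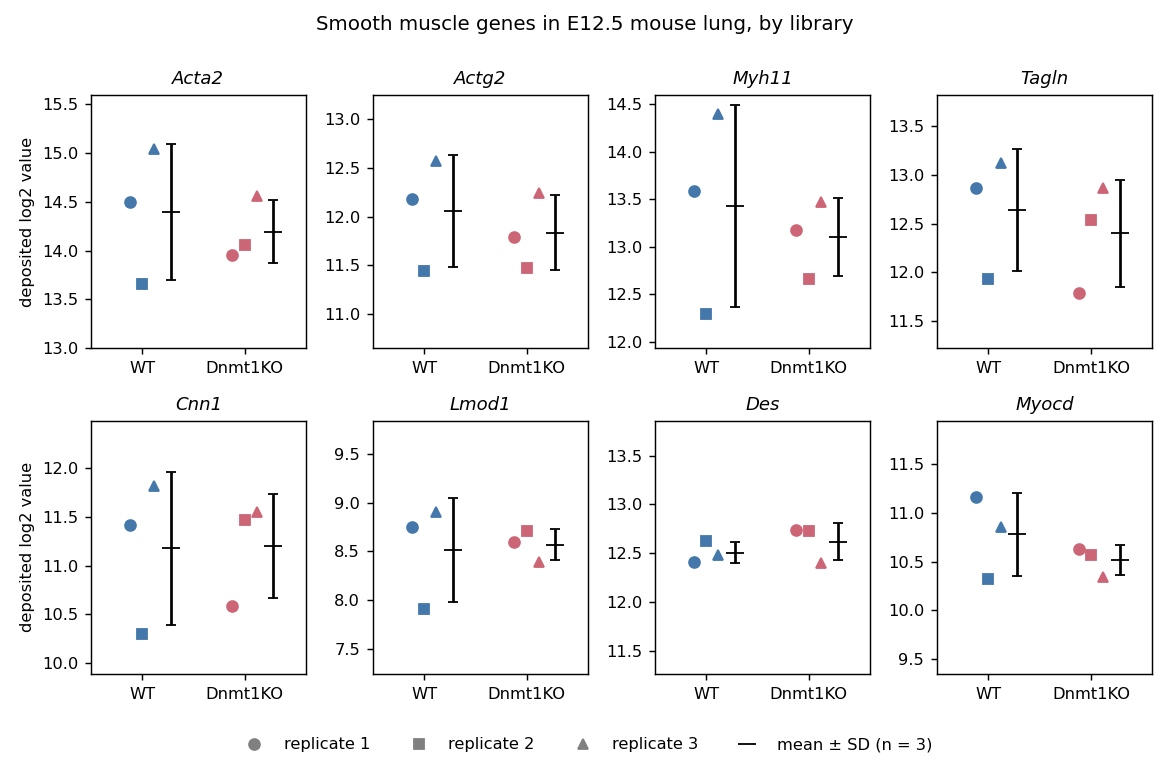
Deposited log2 values (vertical axis, each panel on its own scale) of the 8 smooth muscle genes in WT (blue) and Dnmt1KO (red) libraries, with marker shape for the replicate and black bars for mean ± SD (n = 3 each). In Acta2, Actg2, Myh11, Cnn1, Lmod1 and Myocd the lowest and the highest of the 6 values are both WT libraries.

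Acta2, whose protein forms the contractile thin filament and is the most used marker of smooth muscle, stood at log2 values of 13.96, 14.06 and 14.56 in Dnmt1KO replicates 1, 2 and 3. In WT replicates 1, 2 and 3 it stood at 14.50, 13.66 and 15.04. All Dnmt1KO values lay between the WT extremes, and the WT libraries alone spanned 2.61-fold. The log2 difference, Dnmt1KO minus WT, was -0.21 ± 0.35 (SE, limma adjusted p = 1), with a 95% interval from -1.03 to 0.62. These are reads of 2846, 3369 and 4992 against 5803, 2553 and 7648, before scaling. The exact 95% Poisson interval of the lowest, 2455 to 2654, shows that counting error is small beside this spread. Such intervals cover counting error only.

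Actg2, the gamma actin of smooth muscle, followed the same order within WT. Its values were 11.79, 11.47 and 12.24 in Dnmt1KO and 12.18, 11.44 and 12.57 in WT (log2 difference -0.23 ± 0.30 SE, limma adjusted p = 1, 95% interval -0.92 to 0.47). Actg2 kept close to Acta2 in each library, with log2 ratios to it between -2.59 and -2.17 in all 6. Actc1, in contrast, stood at 10.40, 13.34 and 11.26 in Dnmt1KO and at 11.14, 10.69 and 10.63 in WT. Its high value belonged to Dnmt1KO replicate 2, where neither Acta2 nor Actg2 was high. The skeletal actin gene Acta1 was between 15 and 119 reads in every library.

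Myh11, the heavy chain of smooth muscle myosin and the motor of contraction, had the largest spread of the 8. It stood at 13.18, 12.66 and 13.47 in Dnmt1KO and at 13.59, 12.29 and 14.40 in WT. WT replicate 3 was 4.30-fold above WT replicate 2, whereas the Dnmt1KO libraries spanned 1.75-fold. The log2 difference was -0.32 ± 0.55 (SE, limma adjusted p = 1), and its 95% interval from -1.68 to 1.03 covers folds from 0.312 to 2.05. The pooled SD within the groups was 0.80 for Myh11, against a median of 0.12 over the 2417 genes with a mean level within 0.5 log2 units of it.

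Spread within groups was large in 5 of the 8 genes. At matched levels the pooled SD lay at the 99.9th percentile for Myh11, the 99.6th for Tagln, the 99.5th for Acta2, the 98.9th for Actg2 and the 98.6th for Cnn1. It was lower in rank for Myocd, at the 85.9th, for Lmod1, at the 70.3rd, and for Des, at the 66.3rd. With 3 libraries a group, a difference of the size of this spread could not be resolved.

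Tagln and Cnn1 encode transgelin and calponin, small proteins that bind actin filaments, and are markers of smooth muscle. Tagln stood at 11.79, 12.54 and 12.87 in Dnmt1KO and at 12.87, 11.93 and 13.12 in WT (log2 difference -0.24 ± 0.38 SE, limma adjusted p = 1, 95% interval -1.14 to 0.66). Its lowest library was Dnmt1KO replicate 1, so Tagln departed there from the order of Acta2. Cnn1 stood at 10.58, 11.47 and 11.54 in Dnmt1KO and at 11.41, 10.30 and 11.81 in WT (0.024 ± 0.42, adjusted p = 1, 95% interval -0.97 to 1.02). Dnmt1KO replicate 1 was the second lowest library for Cnn1 as well. Relative to Acta2 in the same library, Cnn1 was at -3.37, -2.59 and -3.02 in Dnmt1KO and at -3.09, -3.36 and -3.23 in WT, so these ratios overlapped too.

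Lmod1, leiomodin, helps to start new actin filaments in smooth muscle and was the least abundant of the 8. It had 69, 82 and 69 reads in Dnmt1KO libraries against 107, 47 and 108 in WT ones, which are log2 values of 8.60, 8.71 and 8.39 against 8.75, 7.91 and 8.90. The 47 reads of WT replicate 2, with an exact Poisson interval of 34.5 to 62.5, were the lowest value. The log2 difference was 0.048 ± 0.29 (SE, limma adjusted p = 1, 95% interval -0.61 to 0.70).

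Des encodes desmin, the intermediate filament of muscle cells, and did not share the library order of the actins. It stood at 12.73, 12.73 and 12.40 in Dnmt1KO and at 12.41, 12.62 and 12.48 in WT, a span of 1.26-fold and 1.16-fold within the groups. Des was highest in Dnmt1KO replicate 1, where Tagln was lowest, and the log2 difference was 0.12 ± 0.11 (SE, limma adjusted p = 1). Its 95% interval, -0.15 to 0.38, was the narrowest of the 8 and covers folds from 0.904 to 1.299. Desmin is also made in heart and skeletal muscle and in pericytes.

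Myocd, the transcriptional co-activator at the head of the programme, stood at 10.63, 10.57 and 10.34 in Dnmt1KO and at 11.17, 10.32 and 10.86 in WT. Reads were 283, 300 and 268 against 574, 253 and 420. WT replicates 1 and 3 were above all Dnmt1KO libraries and WT replicate 2 was below them. The log2 difference of -0.27 ± 0.21 (SE) did not pass (limma adjusted p = 1, 95% interval -0.74 to 0.21). Myocd was highest in WT replicate 1, not in WT replicate 3 where Acta2 and Myh11 were.

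**Figure D2:**
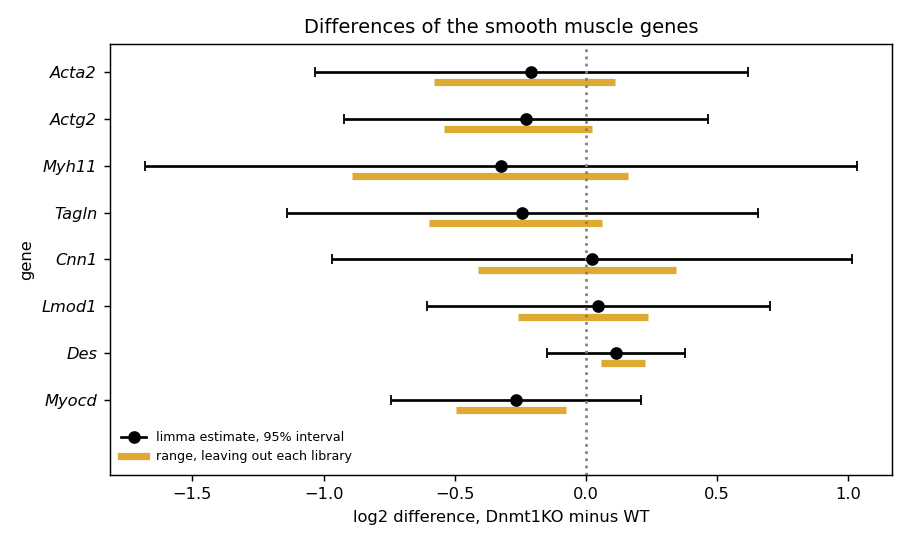
Log2 difference, Dnmt1KO minus WT (horizontal axis), of each smooth muscle gene, with points and black bars for limma's estimate and 95% interval and yellow bars for the range of the estimate as each library is left out. All 8 intervals include 0, and the yellow bars cross 0 in all genes except Des and Myocd.

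The direction of most differences rested on single WT libraries. Without WT replicate 3 the differences of Acta2, Actg2 and Myh11 turned positive, to 0.11, 0.025 and 0.16, and the median over the 8 genes was 0.11. Without WT replicate 2 the median was -0.52, with Acta2 at -0.58 and Myh11 at -0.89. In that case Acta2, Actg2, Myh11 and Myocd had an unadjusted p below 0.05, from 0.0156 to 0.0439, and none passed after limma's adjustment (0.825 to 1). The Tagln difference became 0.062 without Dnmt1KO replicate 1. For Cnn1 and Lmod1, near 0 with all libraries, the sign turned without WT replicate 2 or Dnmt1KO replicate 2, and for Cnn1 also without Dnmt1KO replicate 3.

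**Figure D3:**
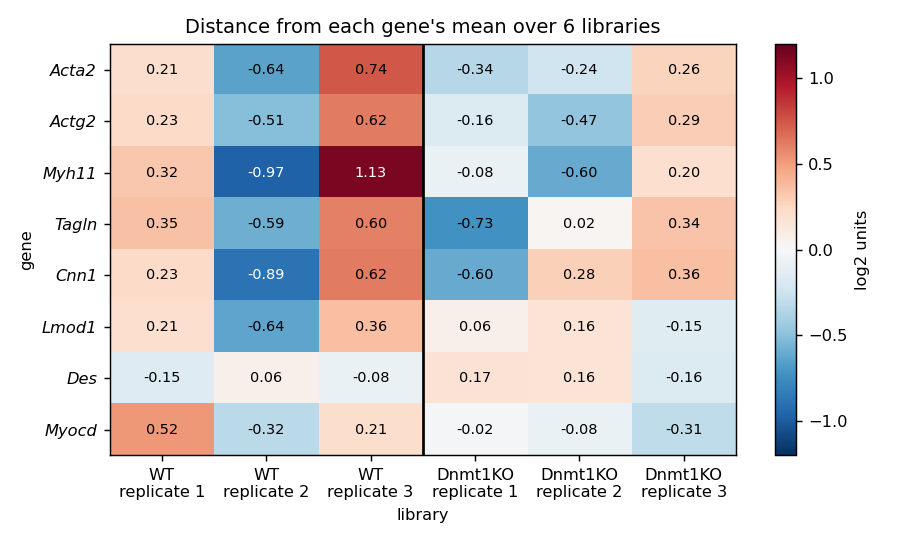
Distance of each library's log2 value from the gene's mean over the 6 libraries (colour and printed value, in log2 units), for the 8 smooth muscle genes in rows and the libraries in columns. WT replicate 2 is blue and WT replicate 3 red in all rows except Des, with Myh11 at -0.97 and 1.13.

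Most of the 8 genes shared an order of libraries that did not follow genotype. WT replicate 3 was the highest of the 6 libraries in 6 of the 8 genes, and WT replicate 2 the lowest in 6. Both held in 5 genes (Acta2, Actg2, Myh11, Cnn1 and Lmod1), which is 62.5% of the set, against 2.65% of all genes. This order was read from the same 8 genes, so their share describes them and is not a test. The summed level of the 8 genes was 323 RPM in WT replicate 2, 571 in WT replicate 1 and 802 in WT replicate 3, and 419, 430 and 567 in Dnmt1KO replicates 1, 2 and 3. WT replicates 1, 2 and 3 held 25597662, 20599736 and 23181312 reads, and the part of depth in this order was not tested.

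Scaled to exon length and library size (RPKM), Acta2 was the most abundant member in every library. Its mean level was 85.2 ± 19.9 in Dnmt1KO and 103 ± 46.9 in WT (SD over 3 libraries in each group). Tagln followed with 27.9 ± 9.75 and 33.2 ± 12.9, then Actg2 with 23.6 ± 6.40 and 28.1 ± 10.6. Des was at 16.5 ± 2.11 and 15.0 ± 0.995, Myh11 at 11.7 ± 3.16 and 16.6 ± 10.7, and Cnn1 at 8.80 ± 2.86 and 9.002 ± 4.27. Myocd, at 2.24 ± 0.230 and 2.74 ± 0.792, and Lmod1, at 0.941 ± 0.102 and 0.939 ± 0.319, were the least abundant. The order of Des and Myh11 held in 3 of 6 libraries, and the ranges of Tagln and Actg2, Actg2 and Des, and Myh11 and Cnn1 overlapped. Acta2 over Tagln, Cnn1 over Myocd and Myocd over Lmod1 held in all 6 with no overlap. Exon lengths came from GRCm38 gene models and not from those of the authors. Each is the union of all annotated exons of a gene and can exceed the length of its main transcript. The order of genes by RPKM depends on these lengths.

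Companion genes of the contractile programme gave no calls either. Of 36 measured genes on a list of 39, none passed limma's test in either direction and none had an unadjusted p below 0.05. The median log2 difference was -0.0059, with 17 positive and 19 negative. The 5 with the smallest p were the non-muscle myosin gene Myh9 (-0.15 ± 0.09 SE), Synpo2, which bundles actin at muscle adhesions (-0.30 ± 0.20), the tropomyosin gene Tpm1 (0.19 ± 0.15), the actin crosslinker gene Actn1 (-0.12 ± 0.11) and the smoothelin gene Smtn (-0.12 ± 0.11), each with adjusted p = 1. Actb and Actg1, the actins of all cells, differed by 0.026 ± 0.10 and 0.015 ± 0.08.

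The companions varied less between libraries than the 8 members. Their median range over the 6 libraries was 0.42 log2 units, against 1.23 for the members and 0.42 for all genes. WT replicate 3 highest with WT replicate 2 lowest was found in 4 companions, namely Synpo2, the adhesion gene Vcl, the potassium channel subunit gene Kcnmb1 and the junctophilin gene Jph2. Synpo2 stood at 11.50, 10.80 and 11.56 in WT replicates 1, 2 and 3, a 1.70-fold range over the 6 libraries. Kcnmb1, a smooth muscle gene, had 29, 11 and 43 reads in these WT libraries, and the Dnmt1KO libraries held 27, 20 and 38. Most companions are also made by other mesenchymal cells.

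Among genes above the median level with a common name, the 8 whose values over the 6 libraries were most like the scaled mean of the members were Mtfr1l (Pearson's r = 0.994), Zw10 (0.985), Fam50a (0.978), Aqr (0.976), Tspan14 (0.9746), Hdac6 (0.964), Vps39 (0.962) and Cog3 (0.957). They are the best of 6964 genes over 6 libraries that share their scaling, so r is a description only. Their changes were small, with Mtfr1l between 13.04 and 13.35 and Zw10 between 12.65 and 12.80. They resembled the members in the order of the libraries and not in the size of the change. None of the 8 is on the companion list.

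Of the transcriptional regulators of smooth muscle, 25 of 26 were measured, and none passed limma's test (median log2 difference 0.075, 15 positive and 10 negative). At an unadjusted p below 0.05 the count was 1 of 25, near the 4.52% of all genes, and the groups did not overlap in 2 of 25, near the 8.78% of all genes. The 1 gene was Foxf1, a forkhead factor of lung mesenchyme and a Hedgehog target. Foxf1 stood at 13.64, 13.55 and 13.52 in Dnmt1KO and at 13.81, 14.07 and 13.97 in WT. Every Dnmt1KO value was lower, by a log2 difference of -0.38 ± 0.09 (SE), and the adjusted p was 0.261. Srf also had all Dnmt1KO values below all WT values, at 14.14 ± 0.05 against 14.28 ± 0.05 (SD, n = 3), a difference of -0.14 ± 0.07 (SE, limma adjusted p = 1).

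The other 3 regulators with the smallest p had overlapping groups. Mef2c, a muscle transcription factor gene, differed by 0.15 ± 0.10 (SE) and the Srf partner gene Elk1 by -0.17 ± 0.12, each with limma adjusted p = 1. For the heart factor gene Nkx2-5, Dnmt1KO reads were 5, 64 and 29 and WT reads 30, 1 and 1. Its highest library was Dnmt1KO replicate 2, the library in which heart muscle genes were highest, and the part of that in its value was not tested.

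**Figure D4:**
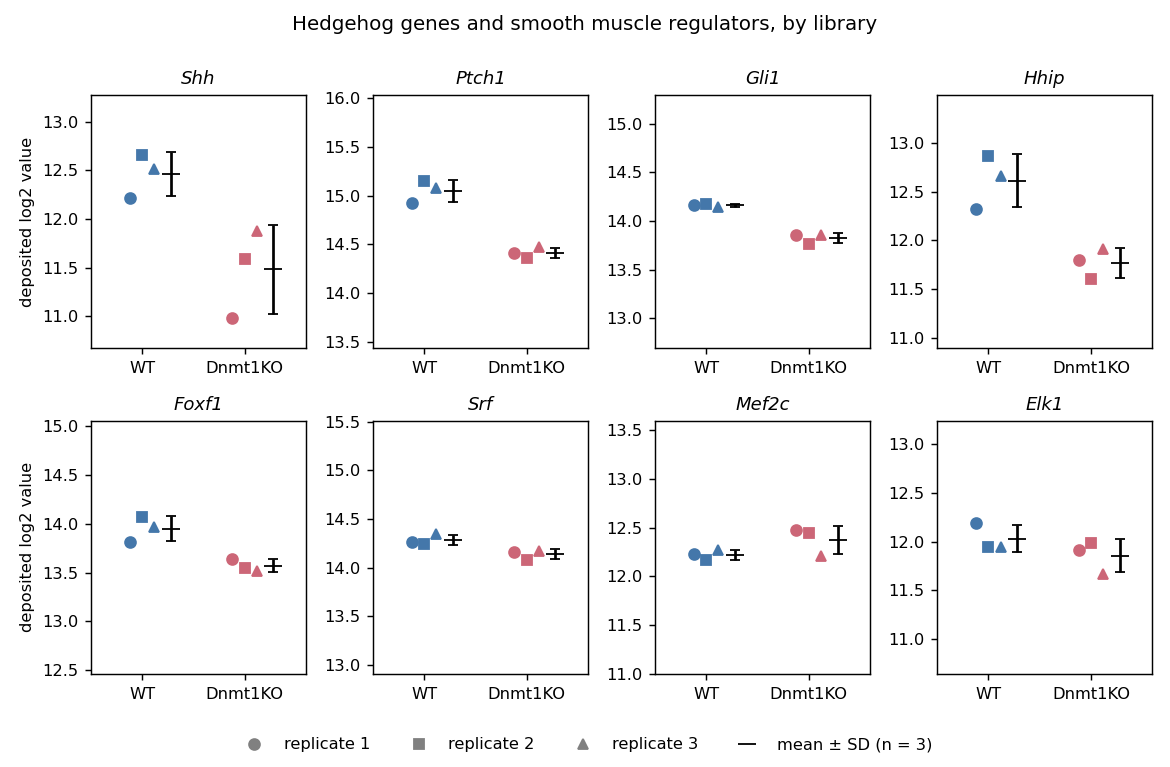
Deposited log2 values (vertical axis, each panel on its own scale) of 4 Hedgehog genes and 4 regulators in WT (blue) and Dnmt1KO (red) libraries, with marker shape for the replicate and black bars for mean ± SD (n = 3 each). In all panels except Mef2c and Elk1 every Dnmt1KO value is below every WT value.

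Of the 35 signal genes of airway smooth muscle formation, all measured, 1 fell and none rose by limma's test. It was the only gene that fell of all 14162, so the 0.00706% of genes lower in Dnmt1KO is this gene. As the list was chosen with earlier results of these data known, its count is a description only. The gene was Ptch1, the Hedgehog receptor whose own transcription Hedgehog raises, at 14.41, 14.36 and 14.47 in Dnmt1KO and 14.93, 15.15 and 15.07 in WT. The log2 difference was -0.63 ± 0.08 (SE, limma adjusted p = 0.0258). Without Dnmt1KO replicate 1, Dnmt1KO replicate 2, WT replicate 2 or WT replicate 3 in turn it did not pass, with adjusted p of 0.174, 0.137, 0.0822 and 0.165. It also did not pass with the replicate block (0.053), without the lowest 25% of genes (0.138) or without trend and robust moderation (0.102). The difference itself stayed between -0.70 and -0.59 under all 14 alternatives. The median over the 35 genes was -0.15, with 22 negative. At an unadjusted p below 0.05, 6 were lower and 1 was higher in Dnmt1KO, where 1.6% of all genes were lower and 2.92% higher.

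Hhip, Shh and Gli1 did not pass in the main fit, and in each of them every Dnmt1KO value was below every WT value. The groups did not overlap in 8 of the 35 signal genes, against 8.78% of all genes. Hhip, Shh and Gli1 were named for their small p, which favours groups that do not overlap. Hhip, which binds and restrains Hedgehog ligands, differed by -0.84 ± 0.15 (SE, limma adjusted p = 0.0795). Among the alternatives, Hhip passed with sample weights (limma adjusted p = 0.0152) and without WT replicate 1 (0.0154), and in no other. Shh, the ligand itself, was at 10.98, 11.59 and 11.88 in Dnmt1KO against 12.22, 12.65 and 12.51 in WT (-0.98 ± 0.22, adjusted p = 0.213). Gli1, a transcription factor gene that Hedgehog signals raise, differed by -0.33 ± 0.07 (0.187). The SDs within Dnmt1KO and WT were 0.05 and 0.11 for Ptch1, 0.05 and 0.02 for Gli1, 0.15 and 0.28 for Hhip and 0.46 and 0.22 for Shh. Of the 8 smooth muscle genes, Myh11, with the largest spread, had 0.41 and 1.06, and Des, with the smallest, had 0.19 and 0.11. Whether the Hedgehog genes and the smooth muscle genes differed in their response was not tested. The labels name Cre for Dnmt1KO only, so effects of the Cre allele at Shh and of Dnmt1 loss cannot be told apart.

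Markers of other cells were measured beside the smooth muscle genes. All 12 vascular smooth muscle and pericyte genes were measured, and their summed level was 942 to 1212 RPM in Dnmt1KO and 991 to 1235 in WT. Of these, 6 were lowest in WT replicate 2, among them the receptor gene Pdgfrb, at 13.98 against 14.05 to 14.61 in the other 5 libraries. Notch3 and Gucy1a1, more abundant than Pdgfrb, were lowest in Dnmt1KO replicate 3. Groups did not overlap in 2 of the 12 genes, among them Gucy1a1, against 8.78% of all genes. At an unadjusted limma p below 0.05, 1 of the 12 was lower and 0 were higher, against 1.6% and 2.92% of all genes. All 8 endothelial genes were lowest in WT replicate 2, against 19.1% of all genes, and 3 of them, Pecam1, Kdr and Emcn, were also highest in WT replicate 3. Pecam1, an adhesion gene of vessel walls, stood at 13.31, 12.63 and 13.54 in WT. Summed, the endothelial genes were at 391 in WT replicate 2 and 510 to 679 in the other 5. Their part in the low smooth muscle values of that library was not tested.

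**Figure D5:**
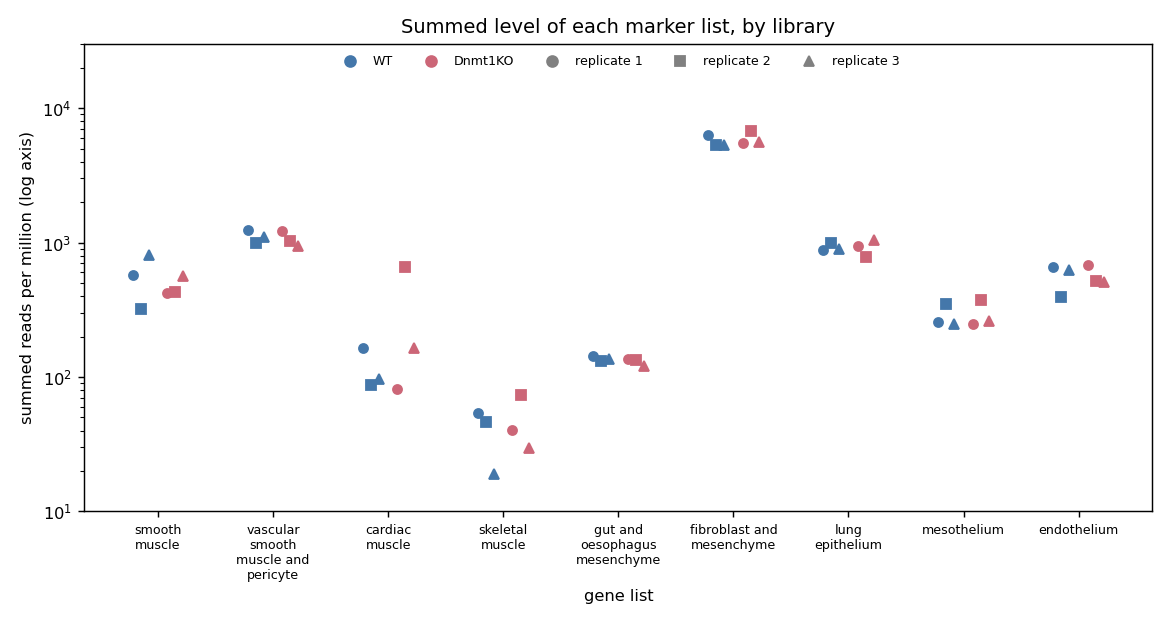
Summed level in RPM (vertical log axis) of the 8 smooth muscle genes and of 8 marker lists in WT (blue) and Dnmt1KO (red) libraries, with marker shape for the replicate. The groups overlap in every list, Dnmt1KO replicate 2 is highest for cardiac muscle at 659, and WT replicate 2 is lowest for endothelium at 391.

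Heart and skeletal muscle genes were also counted. Of 18 heart muscle genes 14 were measured, and none of the 14 was highest in WT replicate 3, against 13.5% of all genes. Of the 14, 6 were lowest in WT replicate 2, against 19.1% of all genes. Their differences were 13 positive and 1 negative, with a median of 0.98, and none had an unadjusted limma p below 0.05. Myl7, an atrial myosin light chain gene, was at 9.63, 13.58 and 11.59 in Dnmt1KO and at 10.58, 10.46 and 10.73 in WT. Without Dnmt1KO replicate 2 the differences of Acta2 and Myh11 were -0.14 and -0.10. Of 20 skeletal muscle genes 11 were measured, with sums of 29.5 to 73.1 RPM in Dnmt1KO and 18.9 to 53.9 in WT. WT replicate 3, highest for smooth muscle, was lowest for this list. No measured gene of either list was at 0 reads in any library.

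Fibroblast and mesenchyme genes, 12 of 12 measured, summed to 5537 to 6735 RPM in Dnmt1KO and 5327 to 6345 in WT, with WT replicate 3 lowest. Of these 12 genes, 1 was lowest in WT replicate 2 and 1 was highest in WT replicate 3, against 19.1% and 13.5% of all genes. Epithelial genes, 12 of 12 measured, summed to 775 to 1043 and 879 to 986, and mesothelial genes, 6 of 7, to 249 to 372 and 246 to 348. Such sums can hide opposite changes. Epithelial differences ran from -1.51 to 1.58 and mesothelial ones from -0.14 to 1.26, and none passed limma's test. At an unadjusted p below 0.05, 2 epithelial genes were higher and 3 lower, and 2 mesothelial genes were higher, against 2.92% higher and 1.6% lower of all genes. Groups did not overlap in 4 epithelial genes and 1 mesothelial gene. For genes of gut and oesophagus mesenchyme, 6 of 9, the sums were 120 to 135 and 132 to 143. The 6 differences on that list were 3 positive and 3 negative, with a median of 0.075. Of its 4 most abundant genes, Kit differed by 0.32 ± 0.19, Etv1 by 0.16 ± 0.22 and Isl1 by -0.011 ± 0.32 (SE), with overlapping groups. The remaining one, Ano1, a chloride channel gene also used by smooth muscle, stood at 11.44, 11.61 and 11.84 in Dnmt1KO and 12.23, 12.52 and 12.41 in WT, with no overlap (log2 difference -0.76 ± 0.13 SE, limma adjusted p = 0.0649), as in 8.78% of all genes. No measured gene of these lists was at 0 reads in any library, and in each list the summed ranges of the groups overlapped.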

How the data were processed

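Each library's deposited table pairs Ensembl gene identifiers with log2 values, whose column carries the heading signal. STAR, limma and the build mm9 appear in the submitters' processing notes, without version or role. How genes were counted, annotated, filtered and scaled is not given in the sources used here. Raising 2 to a value gave whole reads plus 0.5, times a constant of the library, for 100% of genes within 1e-06 reads. The lowest gene total was 60 reads, so rarer genes were not analysed here. Values of genes with few reads depend on this offset.

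Symbols came from GENCODE M21 (GRCm38) by identifier, for 13967 of 14162 genes. RPM are recovered reads scaled by each library's total in the usual way, and RPKM divide these by its exon lengths.

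The log2 values of all genes were modelled in limma 3.58.1 (R 4.3.3), with genotype as the only term, trend and robust moderation, and Benjamini-Hochberg adjustment at 0.05. The fit was tried on simulated counts with the same dispersion (variation beyond counting error) for every gene. That trial does not show which differences could be detected at the spread of the members. The members, lists and tests were chosen with earlier results of these data known. Named were all members, the 5 genes with the smallest p of each of 3 lists (companions, regulators, signals), the most alike genes, actin paralogues, Dnmt1 and Ptch1, except 1 signal gene that is not reported here. From the marker lists, whose 4 most abundant genes were to be named, only some are given. Further genes (Emcn, Vcl, Kcnmb1, Jph2) were named after their values were seen. Alternatives were the replicate block, removal of the lowest 25% of genes, quantile normalization, median centring, no trend or robust moderation, sample weights, voom, an offset of 5 reads and leaving out each library.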

Additional observations from a re-analysis of the deposited data

How the results depend on the processing

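None of the 8 smooth muscle genes, 36 companions or 25 regulators passed limma's test under any of the 14 alternatives that tested them. The lowest adjusted p of a member was 0.757. Without the lowest 25% of genes, only 7 members, 31 companions and 22 regulators were left to test. Of 111 member values under these alternatives, 12 had a turned sign. With sample weights Acta2 was at -0.49, Actg2 at -0.52, Myh11 at -0.79, Cnn1 at -0.14 and Lmod1 at -0.015, and with quantile normalization Lmod1 was at -0.11. Leaving out each library gave -0.58 to 0.11 for Acta2, -0.60 to 0.062 for Tagln, -0.89 to 0.16 for Myh11, -0.41 to 0.34 for Cnn1, -0.54 to 0.025 for Actg2, -0.26 to 0.24 for Lmod1, -0.50 to -0.075 for Myocd and 0.058 to 0.23 for Des. The cause was not tested.

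Of the 35 signal genes, 1 was called. The count was 0 with the replicate block, 0 without the lowest 25% of genes, 0 without trend and robust moderation and 3 with sample weights, and between 0 and 2 when single libraries were removed. Deviations of same-numbered libraries from their group means correlated at -0.0027, -0.18 and 0.31. Dnmt1KO replicates 1 and 2 correlated best with another number and Dnmt1KO replicate 3 with its own. With 3 libraries a group these deviations constrain one another, so the check cannot decide whether the numbers pair libraries. With the replicate block the adjusted p of Ptch1 was 0.053. Lmod1 was among the genes removed with the lowest 25%. Lmod1 had the fewest reads of the members, 47 to 108 a library, so counting error is widest there.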
